A study of Homo sapiens with 14 samples.

Results

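The 9 genes described here encode the enzymes that write, maintain and remove DNA methylation: TET1, TET2, TET3, DNMT1, DNMT3A, DNMT3B, UHRF1, TDG and MBD4. They were chosen by gene symbol, not by their values, and all 9 were found among the 26171 entries measured in K562 cells and the 19196 measured in SIGM5 cells. Polyadenylated RNA was sequenced in 14 libraries that form 7 groups of 2, all after 24 h. K562 is an erythroleukaemia line, used here as a pair of clones: K01, TET2+/+ in the series text, which received 12.5 µM TETi76 with 100 µM ascorbate, 12.5 µM TETi76 alone, 100 µM ascorbate alone, or DMSO, and K18, TET2-/-, which received DMSO only. SIGM5, an acute myeloid leukaemia line, received 12.5 µM TETi76 or DMSO. The series title names inhibition of TET dioxygenases as its subject, TETi76 is the inhibitor used, and ascorbate is a reducing cofactor of these enzymes. Each TET2 genotype was 1 clone, so genotype and clone cannot be told apart. The labels number the replicates without saying that they were separate cultures. The p-values thus set group differences against the spread between libraries, which may be technical variation.

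DNMT3A and DNMT3B place methyl groups on cytosines of CpG sites that carry none, and DNMT1 copies existing methylation onto the new strand after replication. UHRF1 binds hemimethylated DNA and brings DNMT1 to it. TET1, TET2 and TET3 oxidise 5-methylcytosine, TDG excises the further oxidised bases, and MBD4, a glycosylase, removes the thymine left where 5-methylcytosine is deaminated. TET2 and DNMT3A are among the genes most often mutated in myeloid leukaemia. DNMT1 and UHRF1 are known to be transcribed mostly in cycling cells, in which E2F factors drive many replication genes.

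The start-site sequences of DNMT1, UHRF1 and DNMT3B are shown first, because DNMT1 fell and DNMT3B rose under TETi76 in K01, and UHRF1 works with DNMT1. All 9 genes were matched in the RefSeq promoter table (GRCh38.p14), in 20 windows that run from 250 bases before to 50 bases after an annotated start. The E2F spellings TTTCGCGC, TTTGGCGC, TTTCCCGC and TTTGCCGC, searched on both strands, were found in 3.31% of all 35116 windows in that table. Among the 9 genes they were present at DNMT1, in its 1 window at position -2 from the start, and at UHRF1, in 2 of 3 windows at positions -14 and -160. The 30 bases around each match are given 5′ to 3′ on the gene's strand, with the matched letters in capitals (DNMT1 at chr19:10194937-10194966 on the minus strand, the others at chr19:4909476-4909505 and chr19:4909973-4910002 on the plus strand).
DNMT1: catcggtttccGCGCGAAAagccggggcgc
UHRF1 window 1: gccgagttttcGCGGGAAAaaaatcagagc
UHRF1 window 2: cccgagcccgaTTTCGCGCgccctgagttc
For comparison, 250 bases are shown before the second UHRF1 start (chr19:4909894-4910143, plus strand) and before the only DNMT3B start in the RefSeq promoter table (chr20:32779602-32779851, plus strand). E2F and CCAAT spellings are in capitals. CCAAT, searched on both strands, was in 34.6% of all windows, and stood at position -113 of DNMT3B.
UHRF1 window 2, upstream: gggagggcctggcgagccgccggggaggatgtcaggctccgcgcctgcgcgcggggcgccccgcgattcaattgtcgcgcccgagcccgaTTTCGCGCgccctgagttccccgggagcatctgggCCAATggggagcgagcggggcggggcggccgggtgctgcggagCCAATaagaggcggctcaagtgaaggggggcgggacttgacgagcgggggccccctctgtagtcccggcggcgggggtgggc
DNMT3B, upstream: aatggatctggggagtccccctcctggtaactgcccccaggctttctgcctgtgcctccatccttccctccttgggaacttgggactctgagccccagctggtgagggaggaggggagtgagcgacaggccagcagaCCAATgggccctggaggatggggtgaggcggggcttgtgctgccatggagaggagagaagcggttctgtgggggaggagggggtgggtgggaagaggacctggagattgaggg
This DNMT3B window of 300 bases held 3 CpG sites and the second UHRF1 window 40. The median was 27 over the 20 windows and 14 over all windows. Any DNMT3B start outside the RefSeq promoter table was not searched, so these letters may not describe its main promoter. A further spelling, TGACNNNGC, which is the antioxidant response core bound by NRF2, was in 13.3% of all windows and, among these 9 genes, in the first UHRF1 window at position -239. These matches describe letters only and show no binding.

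The SIGM5 libraries held 18893636 to 23639198 counts. K562 values are FPKM, which divide fragments by gene length and by library size, and the step that 1 read makes in low values put their libraries at about 4.85 to 9.24 M reads (M, mega). The shallowest library was replicate 1 of TETi76 with ascorbate. Replicates correlated at Pearson r of 0.976 to 0.9875 in K562 and 0.9938 to 0.9963 in SIGM5 on a log2 scale. SIGM5 held MPO, LYZ and CSF3R, with HBG1 and HBG2 at 0, and K562 held GATA1, KLF1, HBG1 and HBG2, with CSF3R at most 0.459 FPKM. Some markers were shared: K562 had 22.02 to 35.4 FPKM of LYZ, 6.23 to 23.7 FPKM of SPI1 and 6.29 to 19.3 FPKM of CD33, and SIGM5 had 438 to 514 CPM (counts scaled to library size) of TFRC from the erythroid list. K562 also held the epithelial markers KRT18 (132 to 387 FPKM) and EPCAM (22.6 to 49.6 FPKM) and the T cell gene CD3D (11.3 to 38.1 FPKM). In bulk RNA, fewer cells of a type and less RNA per cell cannot be told apart.

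TET2 was not lower in the K18 libraries. They held 3.31 and 2.95 FPKM of TET2, and the K01 DMSO libraries 1.99 and 2.40 FPKM. Both K18 libraries were above all 8 K01 libraries, of which the highest had 2.40 FPKM, yet the difference from K01 in DMSO did not pass the test (log2 0.37, SE 0.22, limma adjusted p = 0.314). A gene-level value does not see an edit that leaves the transcript in place, so this does not check the genotype label. TET2 was the least abundant of the 9 genes per length in K18 and in K01 DMSO.

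**Figure D1:**
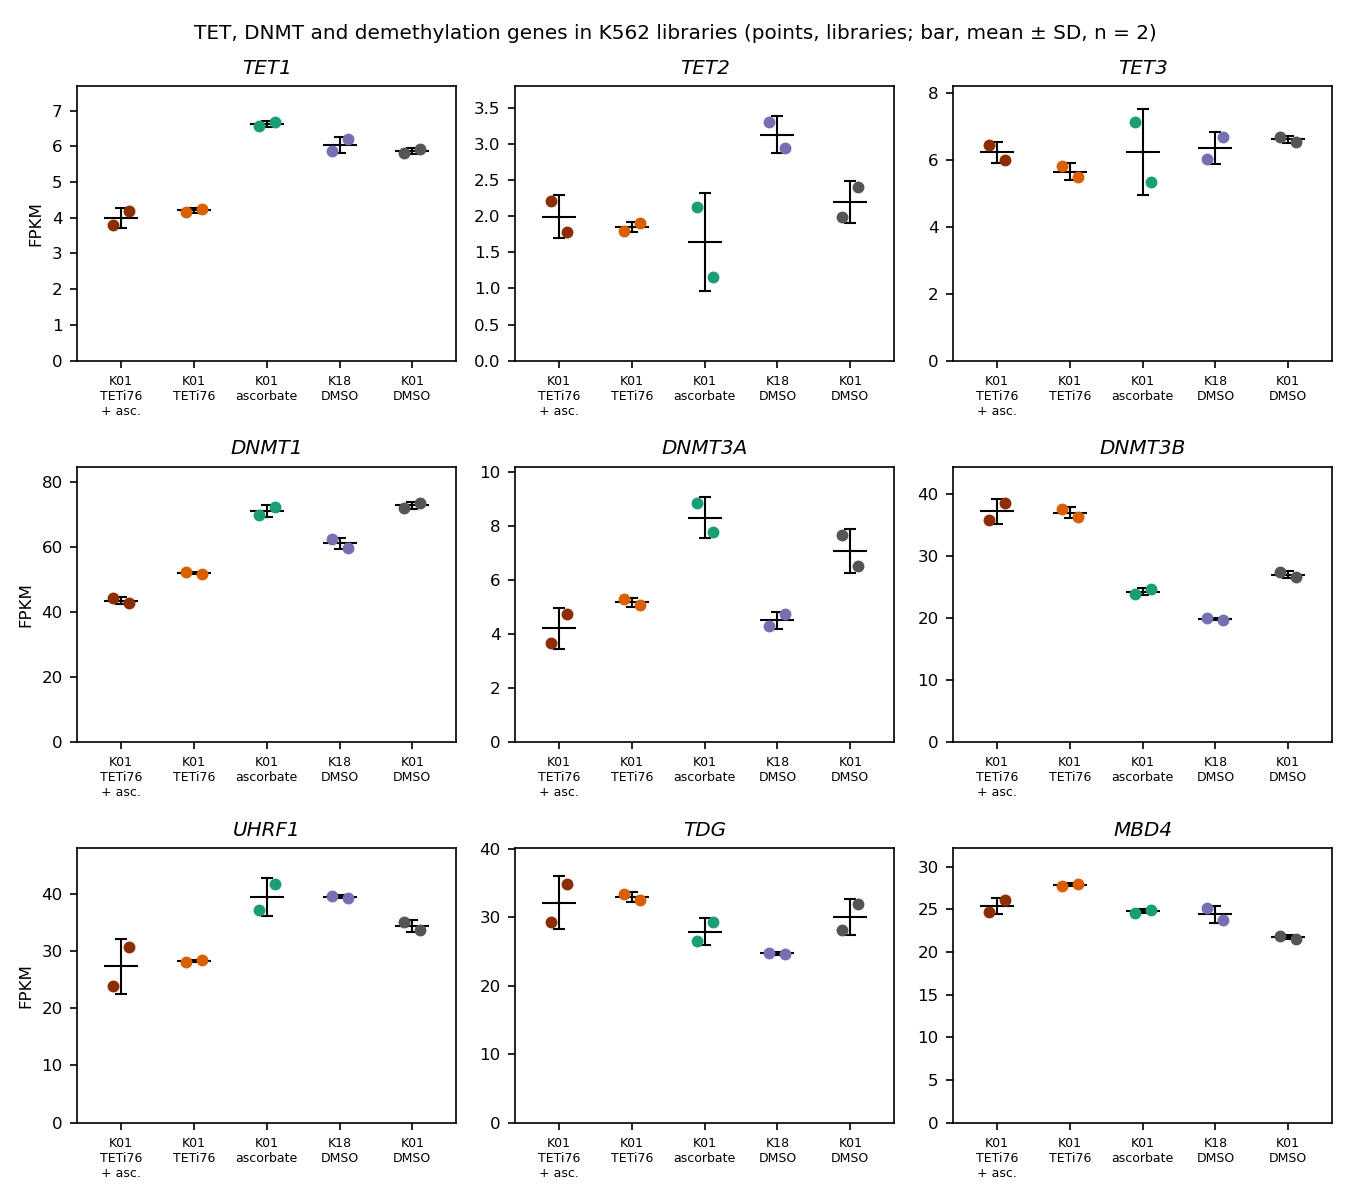
FPKM (y axis, from 0) of each gene in the 10 K562 libraries, by group along the x axis; points are libraries and bars are mean ± SD (n = 2). DNMT3B sits between 35.8 and 38.5 FPKM in the 4 libraries that received TETi76, above all 6 others, while DNMT1 sits between 42.6 and 52.1 FPKM in those 4, below all 6 others.

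Per length, the maintenance enzyme DNMT1 was the most abundant of these transcripts in all 5 K562 groups, and DNMT3A and the TET genes the least. UHRF1 came next in the groups without TETi76, and its mean was below those of DNMT3B and TDG in the groups with it, where its libraries overlapped those of TDG when ascorbate was present. In K18 the order was DNMT1 (61.0 ± 1.82 FPKM), UHRF1 (39.4 ± 0.280), TDG (24.7 ± 0.164), MBD4 (24.4 ± 0.995), DNMT3B (19.8 ± 0.157), TET3 (6.36 ± 0.481), TET1 (6.04 ± 0.220), DNMT3A (4.50 ± 0.319) and TET2 (3.13 ± 0.255; SD, n = 2). The libraries of TDG and MBD4 overlapped there, as did those of TET3 and TET1. In K01 DMSO the order was DNMT1 (72.7 ± 1.14 FPKM), UHRF1 (34.4 ± 0.994), TDG (30.0 ± 2.62), DNMT3B (26.9 ± 0.594), MBD4 (21.7 ± 0.235), DNMT3A (7.07 ± 0.806), TET3 (6.62 ± 0.109), TET1 (5.87 ± 0.0953) and TET2 (2.19 ± 0.289). Only DNMT3A and TET3 overlapped among neighbours in that group. SIGM5 values are counts without lengths, so no order between genes is given for that line.

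TETi76 in K01 shifted the methyltransferases in opposite directions: DNMT1, the maintenance enzyme, fell and DNMT3B, a de novo enzyme, rose, both with and without ascorbate. DNMT1 had 52.1 and 51.8 FPKM in the TETi76 libraries, against 71.9 and 73.5 FPKM in DMSO. With ascorbate present in both arms it had 44.2 and 42.6 FPKM under TETi76, against 69.6 and 72.3 FPKM. The TETi76 libraries were below their comparators without overlap each time. limma gave a log2 change of -0.48 (SE 0.06, adjusted p = 0.000906) against DMSO and of -0.70 (SE 0.06, adjusted p = 7.06e-05) against ascorbate.

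DNMT3B had 37.5 and 36.3 FPKM under TETi76, against 27.4 and 26.5 FPKM in DMSO. With ascorbate it had 35.8 and 38.5 FPKM under TETi76, against 23.8 and 24.6 FPKM under ascorbate alone. The TETi76 libraries were above in both arms, with log2 changes of 0.44 (SE 0.08, limma adjusted p = 0.00434) and 0.60 (SE 0.08, limma adjusted p = 0.000579). In GENCODE v29 the gene S1PR2 overlaps DNMT1 on the same strand, so reads of the shared stretch cannot be assigned. The calls of DNMT1 and DNMT3B held under every alternative run for these comparisons, including the removal of each library.

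DNMT3A, the other de novo enzyme, followed DNMT1 rather than DNMT3B in its direction. It had 5.28 and 5.05 FPKM under TETi76, against 7.64 and 6.5 FPKM in DMSO, and the groups did not overlap, but the log2 change of -0.38 did not pass (SE 0.16, limma adjusted p = 0.111). With ascorbate it had 3.65 and 4.73 FPKM under TETi76, against 8.84 and 7.75 FPKM, and fell by 0.84 on the log2 scale (SE 0.16, limma adjusted p = 0.00363).

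UHRF1, the partner of DNMT1, had 28.1 and 28.4 FPKM under TETi76 and 35.1 and 33.7 FPKM in DMSO (log2 -0.27, SE 0.11, limma adjusted p = 0.118). With ascorbate it had 23.9 and 30.7 FPKM under TETi76, against 37.1 and 41.7 FPKM, and fell by 0.52 (SE 0.11, limma adjusted p = 0.00806). That call was lost without ascorbate replicate 2 (log2 -0.44, limma adjusted p = 0.0571).

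**Figure D2:**
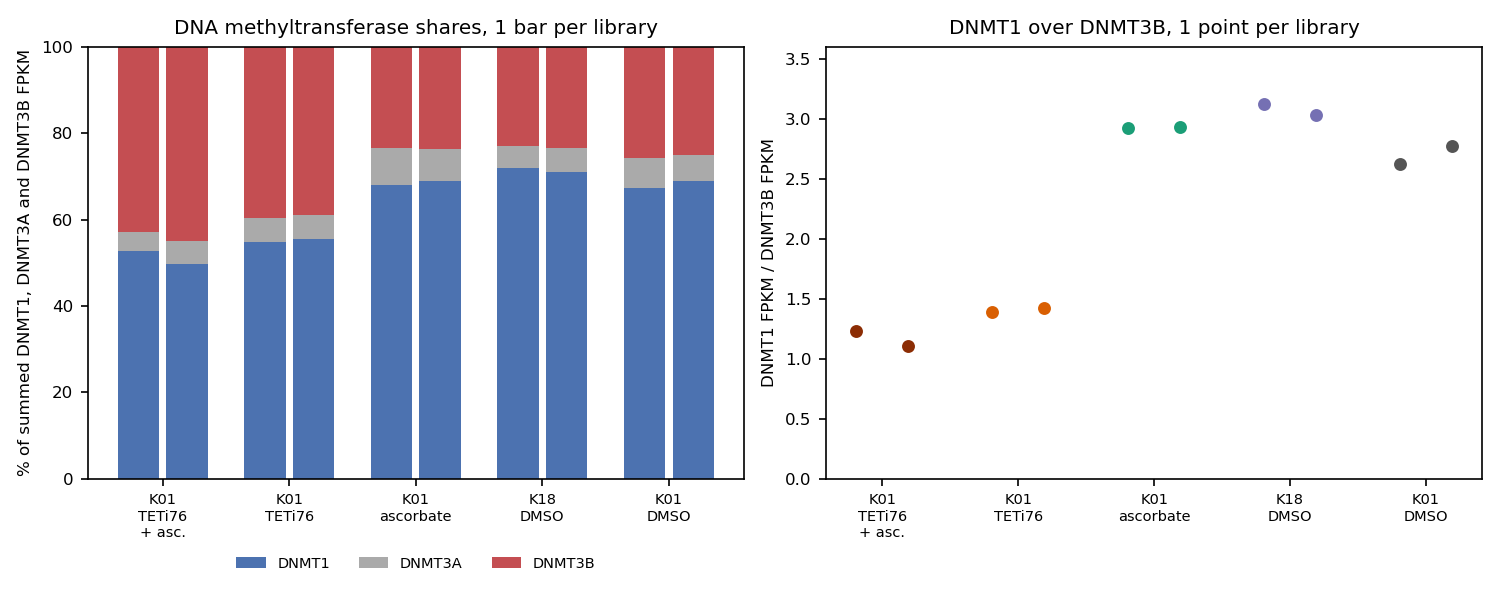
Left, percent of the summed DNMT1, DNMT3A and DNMT3B FPKM held by each (y axis) in every K562 library (bars); right, DNMT1 FPKM over DNMT3B FPKM per library (points). The DNMT1 to DNMT3B ratio lies between 1.11 and 1.43 in the 4 libraries with TETi76 and between 2.63 and 3.13 in the 6 without it.

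The opposite changes altered the make-up of the methyltransferase transcripts. DNMT3B made up 42.8% and 44.9% of the summed DNMT1, DNMT3A and DNMT3B FPKM under TETi76 with ascorbate, and 39.5% and 39.0% under TETi76 alone. It made up 23.3% and 23.5% under ascorbate, 23.04% and 23.4% in K18, and 25.6% and 24.9% in K01 DMSO. DNMT1 over DNMT3B was 1.23 and 1.11 under TETi76 with ascorbate, 1.39 and 1.43 under TETi76, 2.92 and 2.94 under ascorbate, 3.13 and 3.03 in K18, and 2.63 and 2.77 in K01 DMSO. These shares rest on the same values as the tests above and carry no test of their own.

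Of the demethylation side, TET1 was the TET gene with a call in K01. It had 4.16 and 4.25 FPKM under TETi76, against 5.80 and 5.93 FPKM in DMSO, where the difference missed the threshold (log2 -0.40, SE 0.13, limma adjusted p = 0.0552). With ascorbate it had 3.79 and 4.19 FPKM under TETi76, against 6.56 and 6.68 FPKM, and fell by 0.61 (SE 0.13, limma adjusted p = 0.0072). The 4 libraries with TETi76 were thus all below the 6 others. With only the 2 groups in the fit, the second call was lost (adjusted p = 0.0513).

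TET2 had 1.80 and 1.90 FPKM under TETi76, against 1.99 and 2.40 FPKM in DMSO, and TET3 had 5.83 and 5.48 FPKM, against 6.69 and 6.54 FPKM. Neither passed (log2 -0.16 and -0.20, limma adjusted p = 0.651 and 0.398). With ascorbate both overlapped: TET2 had 2.21 and 1.79 FPKM under TETi76 and 2.12 and 1.16 FPKM under ascorbate, and TET3 had 6.45 and 6.0 FPKM and 7.14 and 5.34 FPKM. The summed TET1, TET2 and TET3 FPKM was 12.4 and 11.97 under TETi76 with ascorbate, 11.8 and 11.6 under TETi76, 15.8 and 13.2 under ascorbate, 15.2 and 15.8 in K18, and 14.5 and 14.9 in K01 DMSO.

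MBD4 rose under TETi76 without ascorbate, to 27.7 and 28.0 FPKM, against 21.9 and 21.5 FPKM in DMSO (log2 0.35, SE 0.08, limma adjusted p = 0.0141). With ascorbate in both arms it had 24.7 and 26.0 FPKM under TETi76 and 24.6 and 24.9 FPKM under ascorbate, which overlap (log2 0.03, limma adjusted p = 0.792). The difference between these TETi76 effects did not pass the interaction test (log2 -0.31, SE 0.11, limma adjusted p = 0.277), and the call against DMSO was lost on removal of any 1 of its 4 libraries (limma adjusted p from 0.0579 to 0.0748). IFT122 overlaps MBD4 on the opposite strand in GENCODE v29, and the sources do not say that strand was used, so their reads cannot be told apart. TDG had 33.4 and 32.5 FPKM under TETi76, against 28.2 and 31.9 FPKM in DMSO (log2 0.13, limma adjusted p = 0.412), and with ascorbate 29.4 and 34.9 FPKM, against 26.6 and 29.3 FPKM (log2 0.19, limma adjusted p = 0.202).

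**Figure D3:**
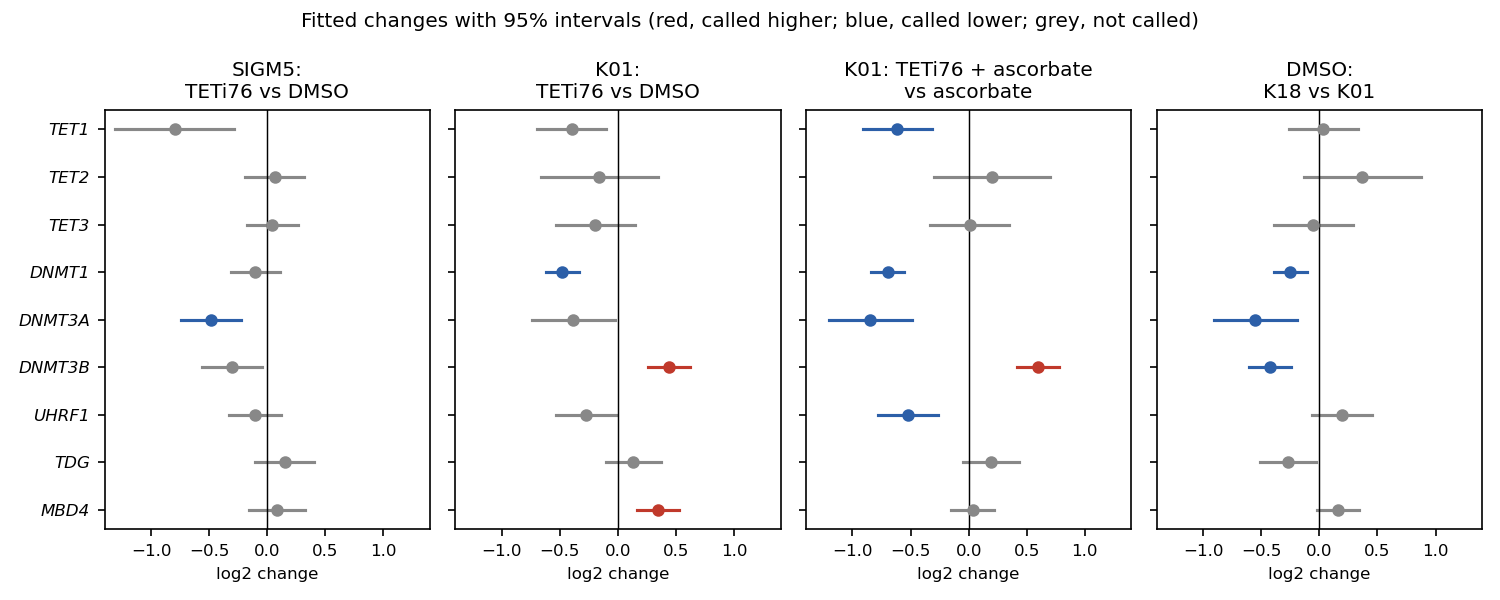
Log2 change (x axis) of each gene with its 95% interval in 4 comparisons, edgeR for SIGM5 and limma for K562; colour marks calls at an adjusted p under 0.05. DNMT1 is to the left and DNMT3B to the right of 0 in both K01 panels, and both are to the left in the K18 panel.

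In total 3 of 9 genes were called under TETi76 against DMSO in K01, 2 higher and 1 lower, where 23.3% of the 12537 genes tested were called (2921 genes, and 1669 to 1787 without any 1 of the 4 libraries). Against ascorbate, TETi76 with ascorbate called 5 of 9, 1 higher and 4 lower, against 30.7% of all genes. All 9 genes had groups without overlap in the first comparison, where 63.3% of all genes did, and 6 of 9 in the second, where 62.9% did. TETi76 with ascorbate against DMSO called 4 of 9 (30.9% of all genes, 3873 genes, and 2575 without K01 DMSO replicate 2): TET1 (log2 -0.46), DNMT1 (-0.73) and DNMT3A (-0.64) were lower and DNMT3B (0.45) was higher. This comparison and TETi76 against DMSO share the DMSO libraries. Its TET1 call was lost without K01 DMSO replicate 1, K01 DMSO replicate 2 or replicate 1 of the combination (limma adjusted p from 0.0920 to 0.110) and with only the compared groups in the fit (0.0819), and its DNMT3A call without K01 DMSO replicate 1 (0.0964) or replicate 1 of the combination (0.0789).

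Ascorbate left no call among the 9 genes. Against DMSO limma called 0 of 9, with 1 at an unadjusted p under 0.05, MBD4 (log2 0.18), and 0.479% of all genes were called. Added to TETi76 it called 0 of 9 by limma, with 1 at an unadjusted p under 0.05, DNMT1 (44.2 and 42.6 FPKM against 52.1 and 51.8 FPKM, log2 -0.25, SE 0.06, adjusted p = 0.114), and 0.734% of all genes were called. The interaction of TETi76 with ascorbate called 0 of 9 by limma, with 2 at an unadjusted p under 0.05, DNMT1 (log2 -0.22) and MBD4, against 0.630% of all genes.

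In SIGM5, TETi76 lowered DNMT3A and left no other call. DNMT3A had 897 and 944 counts under TETi76, against 1112 and 1078 counts in DMSO, and the TETi76 libraries were the deeper ones. This was 37.5 and 41.0 library-scaled counts (CPM) under TETi76, against 59.7 and 50.1 CPM (log2 -0.48, SE 0.13, edgeR adjusted p = 0.0277). The call was lost without DMSO replicate 1 (adjusted p = 0.0896), without TETi76 replicate 1 (adjusted p = 0.619) and without TETi76 replicate 2 (adjusted p = 0.169), all by edgeR.

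TET1 was rare in SIGM5, with 77 and 54 counts under TETi76 and 86 and 109 counts in DMSO, or 3.22 and 2.35 CPM against 4.62 and 5.07 CPM. Its log2 change of -0.80 (SE 0.25) missed the threshold (edgeR adjusted p = 0.0707), and passed it without DMSO replicate 1 (adjusted p = 0.0325) and without a filter on low counts (adjusted p = 0.0323). DNMT3B had 30.0 and 30.9 CPM under TETi76, against 38.8 and 36.4 CPM in DMSO (log2 -0.30, SE 0.12, edgeR adjusted p = 0.197). These 3 genes had groups without overlap, all lower under TETi76, where 46.2% of all genes had such groups.

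The other 6 genes overlapped between the SIGM5 groups. DNMT1 had 280 and 311 CPM under TETi76 and 325 and 310 CPM in DMSO, and UHRF1 163 and 184 CPM and 191 and 183 CPM. TET2, TET3, TDG and MBD4 had log2 changes from 0.04 to 0.15 with edgeR adjusted p from 0.595 to 0.892. edgeR thus called 1 of 9 genes, where 4.13% of 11340 genes were called. That background depended on single libraries: 468 genes were called with all 4, 866 without DMSO replicate 1, 1206 without DMSO replicate 2, 110 without TETi76 replicate 1 and 183 without TETi76 replicate 2.

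**Figure D4:**
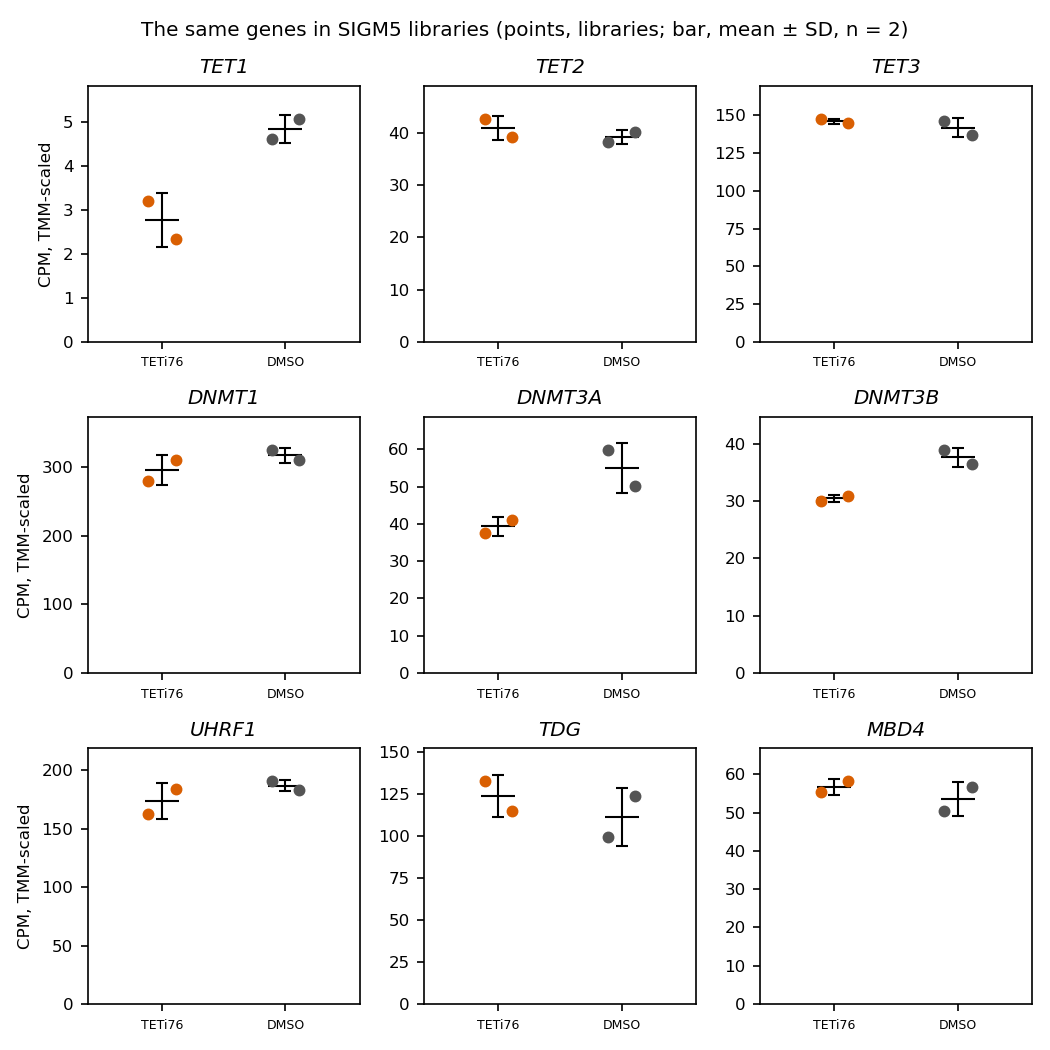
Library-scaled CPM (y axis, from 0) of each gene in the SIGM5 libraries, TETi76 then DMSO; points are libraries and bars are mean ± SD (n = 2). TET1, DNMT3A and DNMT3B are separate between groups, with DNMT3A at 37.5 and 41.0 CPM under TETi76 and 59.7 and 50.1 CPM in DMSO.

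The responses of DNMT3B and DNMT1 to TETi76 differed between the lines. The effect on DNMT3B in SIGM5 minus that in K01 was -0.74 on the log2 scale (SE 0.15, adjusted p = 0.000738, from the edgeR and limma fits), and that on DNMT1 was 0.38 (SE 0.12, adjusted p = 0.0371). For DNMT1, 7 of the 8 removals of a library raised the adjusted p over 0.05. DNMT3A, with effects of -0.48 in SIGM5 and -0.38 in K01, gave a difference of -0.10 with a 95% interval from -0.52 to 0.32. The pseudocount of 1 in the K562 fit understates this K01 effect, at 5.05 to 7.64 FPKM, so the 2 effects are on unlike scales. Of the 9 genes 2 were called for this difference, against 12% of the 9742 genes tested in both lines (1172 genes, and 522 without SIGM5 TETi76 replicate 1 to 1483 without SIGM5 DMSO replicate 2).

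The K18 clone had less of each DNA methyltransferase than K01 in DMSO. DNMT1 had 62.3 and 59.7 FPKM in K18, against 71.9 and 73.5 FPKM in K01 (log2 -0.25, SE 0.06, limma adjusted p = 0.03). DNMT3A had 4.27 and 4.73 FPKM, against 7.64 and 6.5 FPKM (log2 -0.55, SE 0.16, limma adjusted p = 0.0454). DNMT3B had 19.9 and 19.7 FPKM, against 27.4 and 26.5 FPKM (log2 -0.42, SE 0.08, limma adjusted p = 0.00759). No K18 library overlapped a K01 DMSO library in these genes.

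On removal of 1 of the 4 libraries, DNMT1 and DNMT3A lost their calls each time (limma adjusted p from 0.0926 to 0.182 and from 0.0942 to 0.222). DNMT3B lost its call without K01 DMSO replicate 1 (limma adjusted p = 0.0539) and without K18 replicate 2 (limma adjusted p = 0.0581). The log2 differences on removal ranged from -0.28 to -0.22 for DNMT1, from -0.65 to -0.45 for DNMT3A and from -0.45 to -0.40 for DNMT3B, against -0.25, -0.55 and -0.42 with all 4 libraries. DNMT1 also lost its call under quantile normalization (limma adjusted p = 0.169), and DNMT3A without a filter on low values (limma adjusted p = 0.0645). UHRF1 had 39.6 and 39.2 FPKM in K18, against 35.1 and 33.7 FPKM (log2 0.19, limma adjusted p = 0.304), MBD4 25.1 and 23.7 FPKM, against 21.9 and 21.5 FPKM (log2 0.16, limma adjusted p = 0.223), and TDG 24.8 and 24.6 FPKM, against 28.2 and 31.9 FPKM (log2 -0.27, limma adjusted p = 0.123). For TET1 the log2 difference was 0.04 and for TET3 it was -0.05. limma called 3 of 9 genes, all lower, where 15.1% of all genes were called (1887 genes, and 720 to 966 without any 1 of the 4 libraries), and 7 of 9 had no overlap, where 60.5% of all genes did.

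K18 in DMSO was also set directly against K01 under TETi76, a comparison added after the data were seen. DNMT3B had 19.9 and 19.7 FPKM in K18, against 37.5 and 36.3 FPKM under TETi76 (log2 -0.86, SE 0.08, limma adjusted p = 7.65e-05). TDG was lower too (log2 -0.40), and TET1 (log2 0.43), DNMT1 (log2 0.23) and UHRF1 (log2 0.47) were higher in K18. That is 5 of 9 genes, against 28.0% of all genes (3512 genes, and 1947 to 2360 without 1 of the libraries). On removal of any 1 of the 4 libraries compared, DNMT3B kept its call and the other 4 lost theirs.

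**Figure D5:**
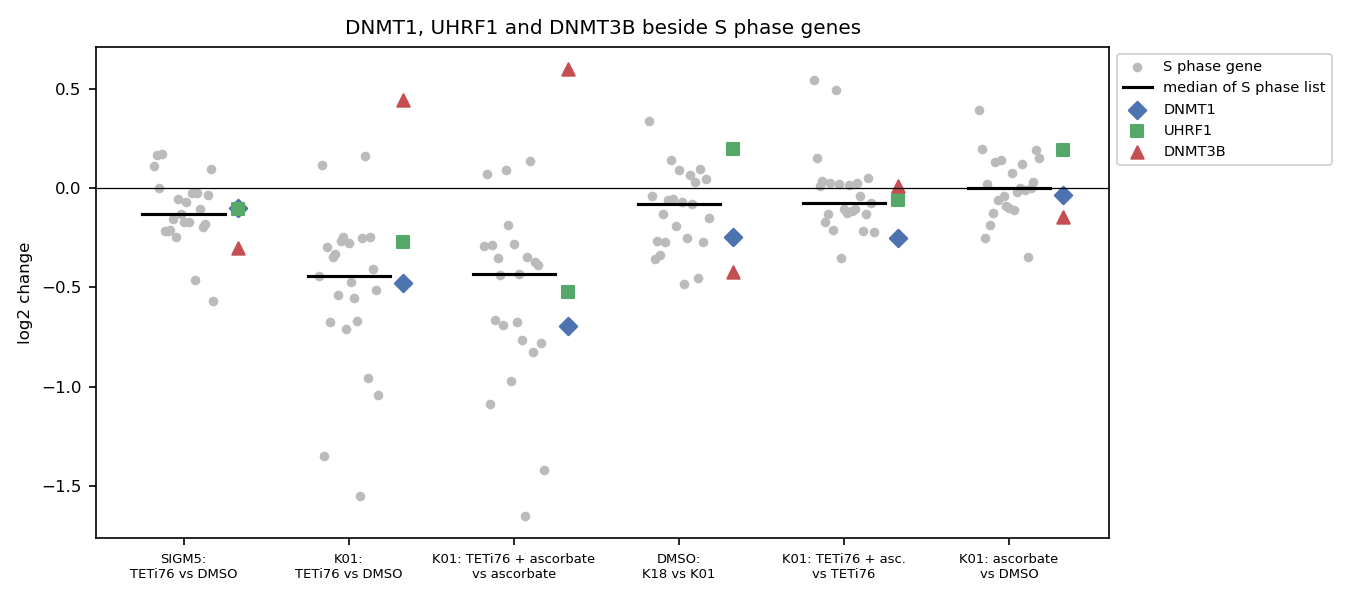
Log2 change (y axis) of 23 S phase genes (grey points; bar, median) with DNMT1, UHRF1 and DNMT3B beside them, by comparison along the x axis. Under TETi76 in K01 the list median is -0.45 and DNMT1 is at -0.48, whereas DNMT3B is at 0.44.

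Genes of DNA replication fell with DNMT1 under TETi76 in K01, while in K18 most of them moved little. Of 23 S phase genes, 16 fell under TETi76 against DMSO in K01 and 0 rose, where 23.3% of all genes were called (median log2 -0.45, against about 0 for all genes), among them the helicase subunits MCM7 (log2 -1.55, SE 0.06) and CDC45 (log2 -1.35, SE 0.08) and the thymidylate synthase TYMS (log2 -1.04, SE 0.10). Against ascorbate, 18 fell and 0 rose (median -0.43), where 30.7% of all genes were called. MCM7 had a mean of 72.8 ± 1.14 FPKM under TETi76 and 215 ± 1.72 FPKM in DMSO (SD, n = 2). In K18, 5 of 23 were called lower than in K01 and 0 higher, where 15.1% of all genes were called. The list median was -0.08, and 7 of 23 had a positive difference. The calls were led by MCM5 (log2 -0.48), POLA1 (log2 -0.45) and CDC45 (log2 -0.36). MCM7 did not fall in K18, with a mean of 225 ± 5.17 FPKM against 215 ± 1.72 FPKM in K01 DMSO (SD, n = 2). In SIGM5 edgeR called 1 of 23, MCM7 (log2 -0.47, SE 0.10), a share near the 4.13% of all genes. For the difference between lines 10 of 23 were called, all positive, against 12% of all genes. Under ascorbate against DMSO limma called 0 of 23, with 4 at an unadjusted p under 0.05, where 0.479% of all genes were called. The part of these genes in the DNMT1 and UHRF1 values was not tested.

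Partners of the methyltransferases moved in both directions in K01. Of 9 tested cofactors, TETi76 against DMSO lowered 3 and raised 1, where 23.3% of all genes were called: CDCA7, which works with the remodeller HELLS (log2 -0.60, SE 0.12), and the replication clamp PCNA, which DNMT1 binds (log2 -0.57, SE 0.07), fell, and the DNMT1 partner DMAP1 rose (log2 0.59, SE 0.12). Against ascorbate 3 fell and 1 rose, where 30.7% of all genes were called, with CDCA7 at log2 -0.84, CDCA7L at -0.71 and PCNA at -0.70. In K18 CDCA7L stood at 0.391 ± 0.215 FPKM, against 7.46 ± 0.894 FPKM in K01 (SD, n = 2), and was lower by log2 -2.61 (SE 0.21), PCNA was lower (log2 -0.33) and DMAP1 higher (log2 0.43). In SIGM5 edgeR called 0 of 9, with 0 at an unadjusted p under 0.05, where 4.13% of all genes were called.

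Of 4 tested TET partners 2 were called for TETi76 against DMSO, where 23.3% of all genes were: the O-GlcNAc transferase OGT (log2 -0.52, SE 0.08) and the CXXC domain protein CXXC5 (log2 -0.40, SE 0.12) fell. Against ascorbate CXXC5 fell (log2 -0.63, SE 0.12) and no other was called. OGT had 29.8 ± 1.46 FPKM under TETi76 and 43.2 ± 0.468 FPKM in DMSO (SD, n = 2). In K18 limma called 0 of 4, where 15.1% of all genes were called, and in SIGM5 edgeR called 0 of 4, where 4.13% were. In each, 0 were at an unadjusted p under 0.05. With so few genes, these counts cannot be told from those shares.

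Base excision repair completes the removal that TDG and MBD4 begin. Of 11 genes 3 were called for TETi76 against DMSO, a share near the 23.3% of all genes. TETi76 against DMSO raised the glycosylase NEIL2 (log2 0.82, SE 0.22) and lowered the scaffold XRCC1 (log2 -0.61, SE 0.11) and the endonuclease APEX1 (log2 -0.33, SE 0.08). Against ascorbate, where 30.7% of all genes were called, 5 fell and 0 rose, among them the uracil glycosylases UNG (log2 -0.78, SE 0.18) and SMUG1 (log2 -0.70, SE 0.23) and APEX1 (log2 -0.57, SE 0.08). In K18 the stress gene GADD45A was lower (log2 -1.01, SE 0.13) and PARP1 higher (log2 0.23, SE 0.06). In SIGM5 edgeR called 0 of 11, with 2 at an unadjusted p under 0.05, where 4.13% of all genes were called.

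Of 7 methyl-CpG readers 2 were called for TETi76 against DMSO, near the 23.3% of all genes: MBD3, a subunit of the NuRD complex, fell (log2 -0.47, SE 0.09) and ZBTB38 rose (log2 0.48, SE 0.14). Against ascorbate 3 of 7 were called, 2 higher and 1 lower, where 30.7% of all genes were. Among these 3, MBD3 fell by 0.81 and ZBTB38 rose by 0.90 on the log2 scale. In K18 limma called 0 of 7, with 0 at an unadjusted p under 0.05, where 15.1% of all genes were called. In SIGM5 edgeR called 0 of 7, with 1 at an unadjusted p under 0.05, where 4.13% of all genes were called. All 3 methyl donor genes were called under TETi76 against DMSO, where 23.3% of all genes were: MAT2A, which makes S-adenosylmethionine, rose (log2 0.31, SE 0.06), and its regulatory subunit MAT2B (log2 -0.32) and AHCY, which clears the product of methylation (log2 -0.46, SE 0.07), fell. Against ascorbate AHCY fell (log2 -0.59) and no other was called. Of the lists of readers, repair genes, partners, donors and S phase genes, MAT2A was the gene called for the interaction of TETi76 with ascorbate (log2 -0.47, SE 0.08, limma adjusted p = 0.0476). In K18 limma called 0 of 3, where 15.1% of all genes were called, and in SIGM5 edgeR called 0 of 3, where 4.13% were. In each, 1 was at an unadjusted p under 0.05.

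Markers of cell identity moved in the same K01 comparisons. Of 7 erythroid markers, TETi76 against DMSO lowered 3, with KLF1 at log2 -1.22, and raised 1, where 23.3% of all genes were called. Of 7 myeloid markers 5 were tested and 1 rose, SPI1 (log2 1.49), a share near that of all genes. The summed myeloid list was 64.3 to 73.1 FPKM under TETi76 and 44.7 to 52.5 FPKM in DMSO, and the libraries under TETi76 held 30.3 to 35.4 FPKM of LYZ, 23.4 to 23.7 FPKM of SPI1, 8.21 to 12.4 FPKM of CD33, 0.701 to 0.726 FPKM of ITGAM, at most 0.761 FPKM of MPO and at most 0.0914 FPKM of CSF3R. In DMSO ITGAM was at 0.206 to 0.210 FPKM and LYZ at 30.8 to 35.1 FPKM. Of 6 stromal, endothelial or epithelial markers 3 were tested and 1 rose, KRT18 (log2 0.94). The list sum was 372 to 409 FPKM under TETi76 and 215 to 244 FPKM in DMSO, with VWF at or under 0.0591 FPKM. The 5 lymphoid markers summed to 18.9 to 21.7 FPKM under TETi76 and 13.96 to 14.9 FPKM in DMSO, nearly all CD3D, with MS4A1 at 0. Against ascorbate, TETi76 with ascorbate lowered 5 of 7 erythroid markers, with KLF1 at log2 -2.15, and raised SPI1, KRT18 and CD3D. In that comparison 30.7% of all genes were called. ITGAM was called higher there too, near the floor, at 0.656 to 1.13 FPKM against 0.0317 to 0.0888 FPKM under ascorbate. It passed the filter on low values only through libraries of the combination and of K18, where it was high, so nothing is drawn from that call. The lymphoid sum was 26.1 to 39.1 FPKM under TETi76 with ascorbate, against 12.3 to 21.3 FPKM under ascorbate. In K18, against K01, the myeloid markers SPI1 and CD33 and the erythroid marker TFRC (log2 0.40) were higher, and HBG1, EPCAM and KRT18 were among the markers that were lower. In SIGM5 TETi76 raised ITGAM (log2 1.36) and lowered MPO (log2 -0.36). The part of these markers in the values of the 9 genes was not tested.

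Genes whose levels ran most like each enzyme over the 10 K562 libraries were taken by Pearson correlation of log2(FPKM + 1) among 8307 genes with a mean of at least 5 FPKM, for enzymes whose group means spanned at least 0.5. All values share the libraries and their groups, and no test is attached. DNMT1 ran most like RUVBL1 (r = 0.993), XPO5 (0.989) and TRAP1 (0.989). DNMT3B ran most like AKR1C1 (0.989), an aldo-keto reductase, and IGF2R (0.987). UHRF1 ran most like UAP1 (0.983), PIK3R2 (0.974) and OXR1 (0.963). DNMT3A ran most like DDB1 (0.979), USP20 (0.979) and EIF3B (0.967). TET1 ran most like FADS1 (0.986), MRPL34 (0.985) and DUS1L (0.983), and TET2 most like EP400 (0.952), COL4A3BP (0.917) and FNIP2 (0.899). TET3, TDG and MBD4 spanned 0.20, 0.40 and 0.35 and were left out.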

How the data were processed

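Gene-level values were used as the authors deposited them, with reads not reprocessed. The SIGM5 values are raw counts per gene, per the deposited values, which are whole numbers. The K562 values are FPKM as deposited by the authors, although their table is named as counts; FPKM and RPKM cannot be told apart. The submitters' processing notes name hg19, STAR, edgeR 3.24.3 and limma 3.38.3, with no role given for any of them; the quantifier is not given in the sources used here. The 9 genes and all lists were chosen with earlier results of these data known. All 9 genes are named in every comparison, with at most 3 called genes by size of log2 change from each list; values of some other genes are not reported here.

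For SIGM5, 11340 genes left by filterByExpr entered the robust quasi-likelihood test of edgeR 4.0.16 with TMM scaling. For K562, log2(FPKM + 1) of all 10 libraries entered a single robust, trended limma 3.58.1 fit, for 12537 genes at 1 FPKM or more in at least 2 libraries; the pseudocount of 1 understates changes of low genes. In K562, 2270 short RNA entries and 26 entries named by a number were left out. All p-values are two-sided, Benjamini-Hochberg adjusted over all genes tested, with a threshold of 0.05. The line difference used the separately fitted effects with Satterthwaite degrees of freedom. Both fits were tested on simulated data with spreads taken from these libraries. The noise had the form that each fit assumes, so this cannot check that form or the replicates. K562 depth between libraries was estimated from low values of 411 genes. Of 1513 such values, 89.2% were whole multiples of 1 read within 0.02. The step of each gene was chosen to fit whole multiples in these values, so that share is no independent check. The absolute depth rests on 34 of these genes with 1 transcript in GENCODE v29, by its length. CPM are TMM-scaled. Alternatives covered DESeq2 1.42.0, scaling, filters, a pseudocount of 0.1, the fitted groups, the replicate block and leaving out each library.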

Additional observations from a re-analysis of the deposited data

Results flagged for a closer look

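The effect of TETi76 differed between the lines for 2 of the 9 genes, by a test of the difference itself, which called 12% of the 9742 genes tested in both lines. DNMT3B had a log2 effect of -0.30 (SE 0.12) in SIGM5 and of 0.44 (SE 0.08) in K01, a difference of -0.74 (SE 0.15, adjusted p = 0.000738, from the edgeR and limma fits). The SIGM5 libraries under TETi76 were both below DMSO and the K01 libraries under TETi76 both above. DNMT1 had a log2 effect of -0.10 (SE 0.10) in SIGM5 and of -0.48 (SE 0.06) in K01, a difference of 0.38 (SE 0.12, adjusted p = 0.0371, from the same fits). The DNMT1 call was lost on 7 of the 8 removals of a library and with the replicate number as a block (adjusted p = 0.0821), with differences from 0.30 to 0.45 on removal. The SIGM5 effect came from counts and the K01 effect from FPKM, and the lines were measured in separately made tables.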

How the results depend on the processing

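The calls of DNMT1 and DNMT3B under TETi76 in K01, with and without ascorbate, and of DNMT3B for the line difference held under every alternative run for them. Over all results of the 9 genes, 851 values kept their direction and side of the threshold, 55 lost and 5 gained the call, and 25 turned sign, all of these from small values that were not called. The number of the 9 genes called in SIGM5 was 2 without a filter and 2 with crossed pairing as a block (DMSO replicate 1 with TETi76 replicate 2, chosen after seeing the data because replicate deviations correlated at -0.24), and 0 to 1 without 1 library. It was 0 to 1 for K18 against K01, 1 to 2 for the line difference, 2 to 5 for TETi76 with ascorbate against DMSO, and 1 for K18 against TETi76, each without 1 library. With only the groups compared it was 3 for K18 against TETi76.

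With the replicate number as a block the count for the line difference was 1, since DNMT1 had an adjusted p of 0.0821, and DNMT3A in K18 against K01 had 0.0647 by limma. Same-numbered K562 libraries correlated at -0.02 to 0.05 in their deviations, so no strong shared replicate effect was seen there. In SIGM5 the correlation was -0.24. These values cannot tell whether same-numbered libraries came from the same culture. The block changed no other call.

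Quantile normalization turned TET3 for TETi76 with ascorbate against ascorbate to -0.016 and TET1 in K18 against K01 to -0.0335. Without 1 library the log2 values that turned sign ranged as follows. For the line difference DNMT3A ranged from -0.23 to 0.0339 and TDG from -0.13 to 0.17. TET3 ranged from -0.0101 to 0.0921 in SIGM5, from -0.118 to 0.0157 in K18 against K01 and from -0.265 to 0.096 under ascorbate. The interaction of TDG ranged from -0.0597 to 0.181. For TETi76 with ascorbate against ascorbate, TET2 ranged from -0.0642 to 0.469, TET3 from -0.17 to 0.19 and MBD4 from -0.0021 to 0.0692. Against TETi76, DNMT3B ranged from -0.0438 to 0.0611, TET2 from -0.0341 to 0.169, UHRF1 from -0.23 to 0.11 and TDG from -0.161 to 0.0799. Against DMSO, TET2 ranged from -0.19 to 0.0084 and TDG from -0.0294 to 0.212. Removal leaves 1 library in a group, assumed to vary like the others; the cause of the lost calls was not tested. Depth limits TET1 in SIGM5, at 54 to 109 counts, and TET2 in K562, at 1.16 to 3.31 FPKM.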
